A study of Mus musculus with 15 samples.

Results

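The Siglec genes measured here were the 6 rows that the files name Siglec1, Cd33, Siglece, Siglecg, Siglech and Cd22, out of 38924 gene rows. They were taken by name, without use of their values, and all 6 passed the filter on low counts, as 14967 genes did in all. RNA was sequenced from CD11b+ myeloid cells sorted from the brains of male wild-type C57BL/6J mice aged 12 months, which had eaten either a control chow diet (CD) or a western diet (WD, rich in fat and sugar) since month 2. Within each diet the cells were split into CD45lo cells, the gate that holds microglia, and CD45hi cells, a gate that also takes in other myeloid cells. The libraries numbered 4 for CD CD45hi, 4 for CD CD45lo, 3 for WD CD45hi and 4 for WD CD45lo, 15 in all. All mice were perfused, CD3e+ cells were gated out, and olfactory bulb and cerebellum were removed before sorting, so every group shares these steps. The study describes its count tables as those of single animals, and the labels do not say which CD45lo and CD45hi libraries came from the same mouse.

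Siglecs are lectins of the immunoglobulin family that sit in the membrane of leukocytes and bind sialic acid, the sugar that caps many glycans on the surface of host cells. Most of them carry inhibitory tyrosine motifs in their cytoplasmic tail, which are phosphorylated by Src family kinases such as Lyn and then recruit the phosphatases encoded by Ptpn6 and Ptpn11. Siglec1 (sialoadhesin) and Siglech lack such motifs: the former is an adhesion receptor of tissue macrophages, and the latter signals through the adaptor encoded by Tyrobp and is known from microglia and plasmacytoid dendritic cells.

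In the GENCODE M21 annotation of mm10 (GRCm38), 5 of the 6 genes lie on chromosome 7 and are protein coding. Cd22 spans chr7:30865402-30880342 on the minus strand. Siglecg (chr7:43408204-43418358, plus strand), Cd33 (chr7:43524216-43544428, minus strand) and Siglece (chr7:43651070-43660161, minus strand) follow each other with gaps of 105857 and 106641 bases. Siglech (chr7:55768178-55778925, plus strand) lies apart from them on the same chromosome, and Siglec1 lies on another one, at chr2:131069220-131086765 on the minus strand.

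The 250 bases before the RefSeq start of transcription (GRCm38.p6) are shown for Siglech, the member that fell in CD45hi cells, and for its neighbours in level Cd33 and Siglece, which did not pass that test. The 3 windows are chr7:55767934-55768183 (plus strand), chr7:43533172-43533421 (minus strand) and chr7:43660162-43660411 (minus strand). The Cd33 window lies inside the span given above for Cd33, since RefSeq and GENCODE place its start differently. Each is written 5′ to 3′ on the gene's strand, and capitals mark GAGGAA, the core letters of sites for the myeloid factor PU.1, or its reverse complement TTCCTC.

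Siglech: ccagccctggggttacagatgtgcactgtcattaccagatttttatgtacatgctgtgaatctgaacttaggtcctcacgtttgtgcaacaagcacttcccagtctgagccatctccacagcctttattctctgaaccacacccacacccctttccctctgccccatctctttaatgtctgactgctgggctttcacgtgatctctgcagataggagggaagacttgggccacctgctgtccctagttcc

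Cd33: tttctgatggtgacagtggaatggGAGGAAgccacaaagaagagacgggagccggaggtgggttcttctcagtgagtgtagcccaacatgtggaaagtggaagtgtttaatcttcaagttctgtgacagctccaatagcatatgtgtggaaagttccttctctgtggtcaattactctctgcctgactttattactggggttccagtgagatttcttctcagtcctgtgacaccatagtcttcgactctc

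Siglece: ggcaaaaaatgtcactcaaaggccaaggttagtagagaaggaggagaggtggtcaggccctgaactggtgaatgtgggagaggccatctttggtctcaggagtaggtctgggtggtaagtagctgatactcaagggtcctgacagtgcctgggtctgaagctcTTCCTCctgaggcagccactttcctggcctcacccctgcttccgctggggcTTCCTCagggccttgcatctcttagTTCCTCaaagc

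The Siglech window held no match on either strand, the Cd33 window 1 and the Siglece window 3. Of all 32851 windows of 250 bases in the RefSeq table, 23.3% held at least 1 match. The letters AANNGAAA, the core that interferon regulatory factors bind, were searched on both strands too. They were in none of the windows of Siglech, Cd33, Siglece, Siglecg and Cd22 and in 21.3% of all windows. Such letters describe the windows only, and binding of a factor was not measured. The 2 motifs were searched separately, and matches may overlap.

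Library sizes ranged from 11951412 to 17912272 estimated counts, so that 3 counts corresponded to 0.156 to 0.282 cpm (reads of a gene scaled by library size, after TMM normalisation). Ptprc, which encodes CD45, was at 778 to 1290 cpm in the CD45hi libraries and at 356 to 488 cpm in the CD45lo libraries, as the sort sets. All 9 microglia markers checked were detected in all 15 libraries. Their summed level was 5297 to 6726 cpm in the CD45hi libraries and 12110 to 15240 cpm in the CD45lo libraries, so neither gate lacked microglial transcripts. Cells of a type becoming fewer and RNA per cell becoming less cannot be told apart in such bulk libraries.

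Levels of different Siglecs were compared per transcript length, in TPM (RSEM's share of transcripts, scaled to a fixed total). Siglech was the highest member in CD45lo cells, at 835 ± 43.1 TPM in CD-fed mice (SD, n = 4) and 894 ± 18.3 TPM in WD-fed mice (SD, n = 4). Cd33 came next in CD45lo cells with 571 ± 46.2 and 612 ± 47.6 TPM, and the ranges of the 2 genes did not overlap. Siglece followed with 110 ± 22.0 and 91.6 ± 14.0 TPM, then Cd22 with 9.96 ± 2.78 and 9.67 ± 0.98 TPM. Siglec1 and Siglecg were the lowest members in CD45lo cells, with group means between 1.86 and 3.00 TPM and overlapping ranges.

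In CD45hi cells the order differed at the top and in the middle. Cd33 had the highest mean, 377 ± 66.9 TPM in CD-fed mice (n = 4) and 320 ± 19.03 TPM in WD-fed mice (n = 3). Siglech stood at 330 ± 30.2 and 286 ± 9.19 TPM, so its range overlapped that of Cd33 in CD-fed mice and lay just under it in WD-fed mice. Siglec1 stood in the fourth place, at 34.9 ± 9.97 and 31.0 ± 13.3 TPM, and its range overlapped that of Siglece in both diets. Cd22 and Siglecg were lowest.

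The ratio of Siglech to Cd33 within a library does not depend on how libraries are scaled to each other. On the TPM scale this ratio was 1.33 to 1.72 in the 8 CD45lo libraries and 0.714 to 1.03 in the 7 CD45hi libraries, so the gates did not overlap. This ratio was picked with its values known, so it is given as a description without a test.

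**Figure D1:**
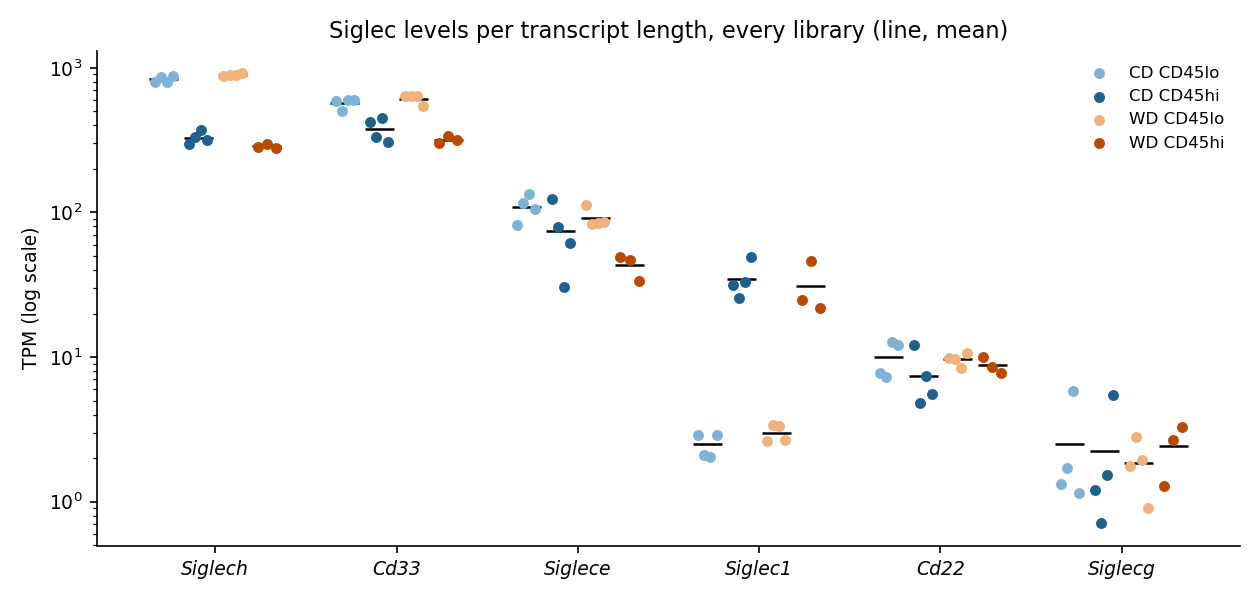
Level of each Siglec gene per transcript length (TPM, log scale) in the 15 libraries; points are libraries, short lines are group means and colours are the 4 groups. Siglech and Cd33 lie above 280 TPM in every library, whereas Siglec1 moves from 2.05 to 3.39 TPM in CD45lo libraries to 21.9 to 49.0 TPM in CD45hi libraries.

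Siglec1, the macrophage adhesion receptor, was the member that differed most between the gates. In CD-fed mice its level was 137, 104, 139 and 237 cpm in the CD45hi libraries and 8.53, 6.75, 6.27 and 8.46 cpm in the CD45lo libraries. In WD-fed mice it was 108, 128 and 100 cpm in CD45hi and 7.48, 9.20, 10.2 and 8.49 cpm in CD45lo libraries. Every CD45hi library lay above every CD45lo library, and CD CD45hi replicate 4 was the highest of all.

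The log2 fold change of Siglec1 in CD45hi over CD45lo cells was 4.36 ± 0.28 (SE) in CD-fed mice, a 20.5-fold higher level, with an FDR of 9.55e-08 by edgeR's glmTreat against a limit of 1.5-fold. In WD-fed mice it was 3.67 ± 0.28, a 12.7-fold higher level, with an FDR of 9.31e-07 in the same test. Across all genes tested, 3.39% in CD-fed and 4.01% in WD-fed mice were called higher in CD45hi cells by this rule. Leaving out CD CD45hi replicate 4 gave a log2 fold change of 4.08 in CD-fed mice.

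RSEM split the Siglec1 reads among transcripts, and the count was fractional in 15 of 15 libraries. In WD CD45hi replicate 2 the mean transcript length was 3672 bases, against 5491 to 6299 bases in the other libraries. That library was the highest of its group in TPM, at 46.2 against 24.9 and 21.9, while its cpm of 128 was close to the others. The fold changes above rest on counts and do not use this length.

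Siglech, the Tyrobp-coupled receptor of microglia, went the other way. Its level in CD-fed mice was 341, 371, 393 and 437 cpm in CD45hi libraries and 657, 738, 719 and 755 cpm in CD45lo libraries. In WD-fed mice it was 354, 401 and 400 cpm in CD45hi libraries and 694, 749, 768 and 729 cpm in CD45lo libraries. No CD45hi library reached the lowest CD45lo library in either diet.

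Siglech was 1.86-fold lower in CD45hi than in CD45lo cells of CD-fed mice (log2 fold change -0.90 ± 0.11, 95% confidence interval -1.13 to -0.66) and 1.91-fold lower in WD-fed mice (-0.93 ± 0.12, -1.19 to -0.67). It passed edgeR's glmTreat at 1.5-fold with FDRs of 0.037 and 0.0282. Of all genes tested, 0.588% in CD-fed and 1.17% in WD-fed mice were called lower by this rule. The direction held in all 25 alternative analyses of each diet, with log2 fold changes between -0.96 and -0.84 and between -0.96 and -0.88. The call against the 1.5-fold limit was lost in 13 of them in CD-fed mice and 10 in WD-fed mice. With edgeR's glmQLFTest, which asks for any change, the FDRs were 4.99e-05 and 8.68e-05.

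Cd33, whose human counterpart is linked to Alzheimer's disease risk, was not called between the gates, and in CD-fed mice its picture depended on the scale. Its CD45hi libraries held 710, 528, 753 and 568 cpm and its CD45lo libraries 719, 645, 735 and 712 cpm, which overlap. TPM values, by contrast, have no TMM normalisation. On that scale the CD45hi libraries of CD-fed mice held 308 to 447 TPM and the CD45lo libraries 502 to 598 TPM, without overlap. The mean transcript length of Cd33 was alike in these gates, at 2498 to 2503 and 2495 to 2498 bases. TPM differs from cpm in that it lacks TMM normalisation and also weighs every other transcript of a library by its length. The part of each in the contrast was not tested. No test was run on TPM. In WD-fed mice the levels were 542, 626 and 553 cpm in CD45hi and 752, 754, 789 and 712 cpm in CD45lo libraries, with no overlap. The log2 fold change was -0.14 (95% confidence interval -0.40 to 0.12) in CD-fed mice and -0.39 (-0.67 to -0.11) in WD-fed mice. Neither was called by edgeR's glmTreat (FDRs 1.0 and 0.964), and in WD-fed mice the FDR for any change by glmQLFTest was 0.079.

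Siglece encodes an inhibitory receptor of microglia, macrophages and neutrophils. Its level in CD-fed mice was 152, 91.2, 37.1 and 81.9 cpm in CD45hi libraries and 72.4, 108, 119 and 90.5 cpm in CD45lo libraries. In WD-fed mice it was 63.6, 62.1 and 42.4 cpm in CD45hi and 95.8, 70.9, 76.0 and 81.7 cpm in CD45lo libraries. The gates overlapped in CD-fed mice and did not overlap in WD-fed mice. The log2 fold change was -0.11 (95% confidence interval -0.77 to 0.56) in CD-fed and -0.53 (-1.26 to 0.19) in WD-fed mice, and neither was called by edgeR's glmTreat (FDRs 1.0 and 0.725). Whether Cd33 or Siglece differed more between gates in WD-fed than in CD-fed mice is the interaction tested below, which neither passed.

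Cd22 and Siglecg are best known as inhibitory receptors of B cells. Cd22 was at 33.2, 12.4, 20.2 and 16.7 cpm in CD CD45hi, 15.7, 15.4, 25.9 and 23.5 cpm in CD CD45lo, 29.3, 25.6 and 22.5 cpm in WD CD45hi and 19.1, 18.8, 17.2 and 23.1 cpm in WD CD45lo libraries. The gates overlapped in both diets. The log2 fold changes of CD45hi over CD45lo cells were 0.04 (95% confidence interval -0.73 to 0.80) in CD-fed and 0.40 (-0.42 to 1.22) in WD-fed mice, with FDRs of 1.0 and 0.842 by edgeR's glmTreat.

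Siglecg was the lowest member on the count scale. It was at 3.28, 1.82, 3.17 and 10.4 cpm in CD CD45hi, 1.88, 3.37, 6.08 and 2.10 cpm in CD CD45lo, 2.73, 4.76 and 9.20 cpm in WD CD45hi and 2.23, 4.68, 3.57 and 1.97 cpm in WD CD45lo libraries. Each group overlapped every other one. The log2 fold changes were 0.48 (95% confidence interval -1.07 to 2.03) in CD-fed and 0.84 (-0.82 to 2.50) in WD-fed mice, with FDRs of 0.987 and 0.745 by edgeR's glmTreat. The spread between libraries was wide, with an SD of 3.89 cpm on a mean of 4.67 cpm in CD CD45hi, where the libraries held 22 to 162 counts.

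Levels of B cell markers were set beside these values. Ms4a1 (CD20), a defining B cell gene, was at 0 to 0.0567 cpm in CD45lo libraries and reached 9.11 cpm in CD CD45hi replicate 2 and 11.1 cpm in WD CD45hi replicate 2. Those 2 libraries were not the highest of their groups in Cd22, at 12.4 and 25.6 cpm. Cd22 in the CD45lo libraries, with Ms4a1 at or near 0, was 15.4 to 25.9 cpm. Ms4a1, Cd79a and Cd79b did not pass edgeR's glmTreat between the gates in either diet. The part of B cells in the Cd22 and Siglecg levels was not tested.

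**Figure D2:**
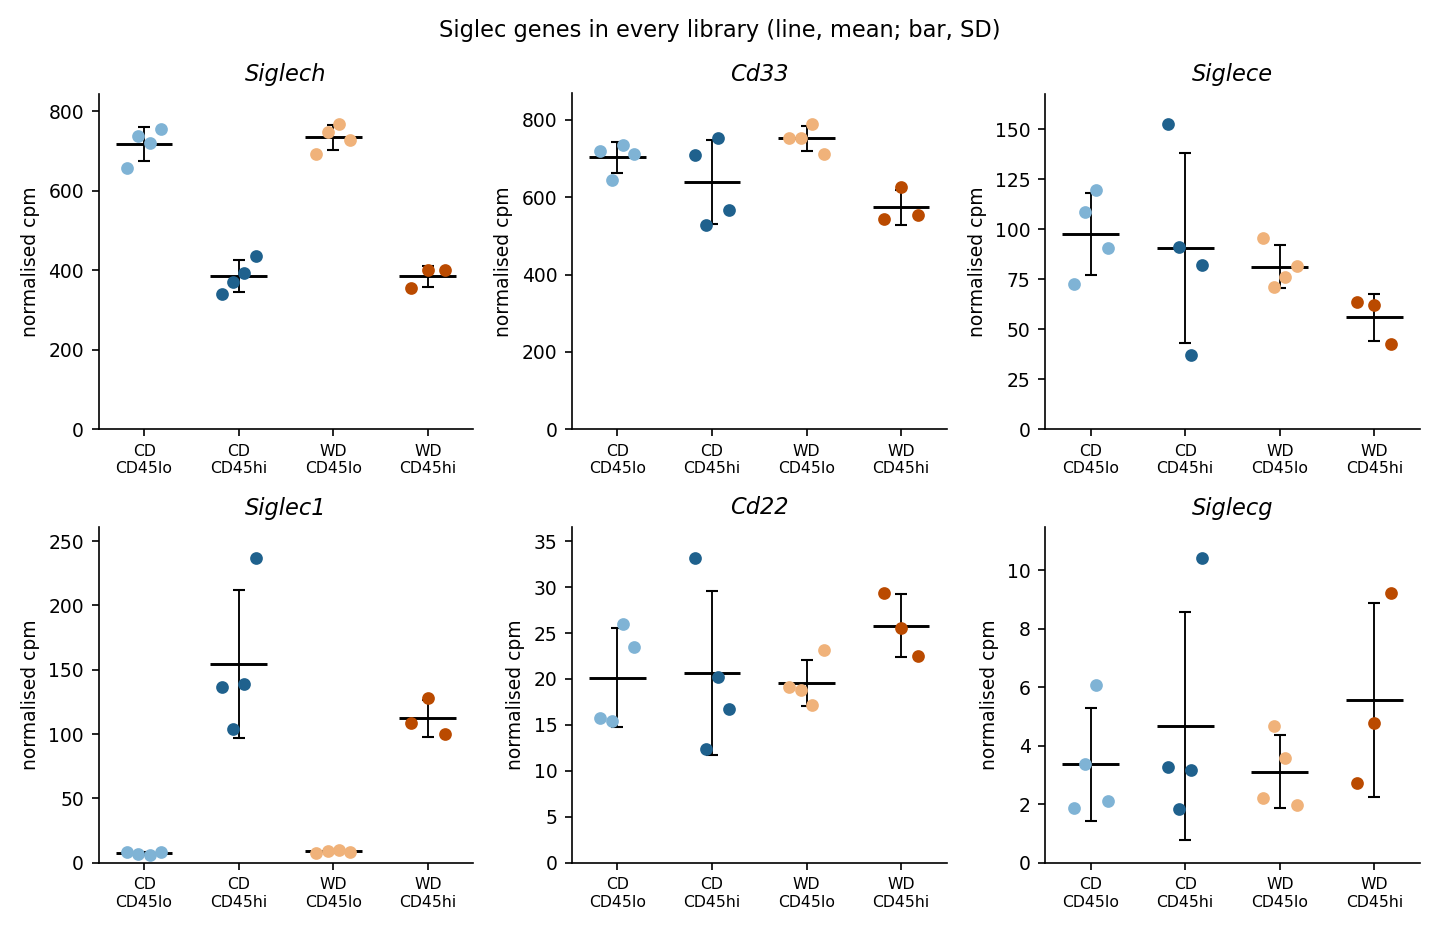
Normalised level of the 6 Siglec genes (cpm after TMM normalisation, linear axes from 0) in each library; points are libraries, horizontal lines are group means and bars are SDs. Siglech is lower and Siglec1 higher in every CD45hi library than in every CD45lo library, whereas Cd22 and Siglecg overlap between the gates in both diets.

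Between the gates, 1 of 6 members was called higher and 1 of 6 lower in CD45hi cells of each diet, against the percentages of all genes given above, and the other 4 were not called in either. On the cpm scale the libraries of the gates did not overlap for 2 of 6 members in CD-fed mice and 4 of 6 in WD-fed mice, against 16.5% and 23.4% of all genes tested. For Cd33 in CD-fed mice the interval of the difference in counts was narrower than 1.5-fold in either direction, whereas for Siglece, Siglecg and Cd22 the intervals reached to or past 1.5-fold on at least 1 side.

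**Figure D3:**
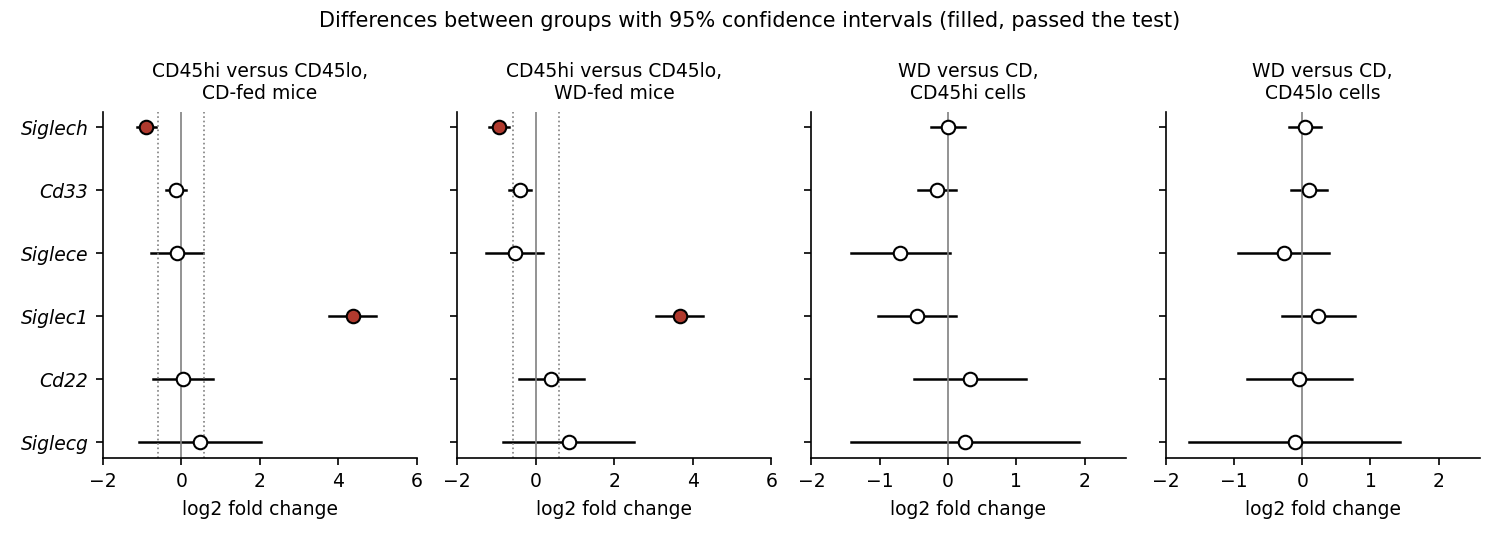
Log2 fold change of each Siglec gene with its 95% confidence interval in 4 comparisons; filled points passed the test, and dotted lines mark the 1.5-fold limit used between the gates. The interval of Siglec1 runs from 3.07 to 4.96 across the 2 gate comparisons, and all intervals of the diet comparisons span 0.

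The diet comparisons ask whether a western diet changed these genes within a gate. No member was called between WD and CD by edgeR's glmQLFTest, in CD45hi or in CD45lo cells. Of all genes tested, 0.254% were called in CD45hi cells and 0.0% in CD45lo cells, and 5.77% and 2.42% did not overlap between the diets. At an unadjusted p under 0.05 there were 2628 genes in CD45hi and 123 genes in CD45lo cells, and DESeq2 called 1030 and 4 genes.

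In CD45hi cells the lowest value was that of Siglece, at a log2 fold change of -0.70 for WD over CD (95% confidence interval -1.43 to 0.04, edgeR FDR 0.310). Neutrophil markers, read beside it because neutrophils carry Siglece, had a median of -0.895 in this comparison, against -0.02 over all genes tested, and 0 of 8 were above 0. They summed to 1576 to 3443 cpm in CD CD45hi and 1365 to 1788 cpm in WD CD45hi libraries, and none of the 8 was called. Between the gates their medians were 4.028 in CD-fed and 3.715 in WD-fed mice, where Siglece had -0.11 and -0.53. Markers of microglia and border macrophages, cells that carry Siglece too, had medians of -0.127 and -0.21 between the diets in CD45hi cells. Of these, 3 of 9 were above 0 in each list. The part of any of these cells in the Siglece value was not tested. Siglec1 had -0.46 (-1.02 to 0.11, edgeR FDR 0.393), and its WD libraries at 100 to 128 cpm overlapped the CD libraries at 104 to 237 cpm. Cd33 had -0.16 (-0.44 to 0.12), and Siglech, at -0.00 (-0.26 to 0.25), had the narrowest interval. Cd22 and Siglecg had 0.32 (-0.50 to 1.15) and 0.25 (-1.41 to 1.92). The libraries of the diets overlapped for all 6 members.

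In CD45lo cells Siglech had 0.03 (95% confidence interval -0.20 to 0.27) and Cd33 had 0.10 (-0.16 to 0.36), so in these cells a diet effect of 1.5-fold lies outside the interval for both. Siglec1 had 0.24 (-0.30 to 0.77), Siglece -0.27 (-0.93 to 0.40), Cd22 -0.04 (-0.81 to 0.72) and Siglecg -0.11 (-1.66 to 1.44). All 6 had an FDR of 1.0 by edgeR's glmQLFTest, and the libraries of the diets overlapped for every member.

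The interaction asks whether the difference between the gates itself changed with diet. It was called for 0.00668% of all genes tested, 1 gene, and for none of the Siglecs. Siglec1 had the lowest unadjusted p of the 6, 0.0783, with a log2 difference of -0.69 (95% confidence interval -1.47 to 0.09, edgeR FDR 0.560). For Cd33 and Siglece the log2 differences were -0.26 (-0.64 to 0.13, edgeR FDR 0.688) and -0.43 (-1.41 to 0.56, edgeR FDR 0.815). For Siglech it was -0.04 (-0.38 to 0.31).

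The genes that make, remove and carry sialic acid and that signal below Siglecs were read from lists, in edgeR's glmTreat. Their counts stand against the 3.39% and 4.01% of all genes called higher in CD45hi cells, so that a single call in a list of 9 or 14 genes is near the background. Among 14 genes of Siglec signalling, 1 rose in CD45hi cells and none fell, in either diet, with a median log2 fold change of 0.22 in CD-fed and 0.41 in WD-fed mice. The median over all genes tested was 0.04 and 0.00. The gene that rose was Fgr, a Src family kinase, from 4.93 to 58.2 cpm in CD-fed mice (log2 fold change 3.56 ± 0.49, FDR 0.000305) and from 7.15 to 83.6 cpm in WD-fed mice (3.55 ± 0.50, FDR 0.000407). The phosphatase genes Ptpn6 and Ptpn11, the kinase gene Lyn, and Tyrobp were among the 13 that did not pass.

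Of 9 genes for the synthesis and turnover of sialic acid, 1 rose in CD-fed mice and none in WD-fed mice, none fell, and the medians were -0.17 and -0.13. The gene was Cmah, which makes the hydroxylated form of sialic acid that mouse Cd22 prefers, from 56.9 to 139 cpm (1.29 ± 0.22, FDR 0.0203 by edgeR's glmTreat). In WD-fed mice it was at 64.3 cpm in CD45lo and 139 cpm in CD45hi cells (1.11 ± 0.24, FDR 0.0803).

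Of 14 sialyltransferase genes tested out of 20 listed, the same 2 rose in CD45hi cells of each diet and none fell, with medians of 0.01 and -0.37. St3gal1 went from 8.54 to 68.0 cpm in CD-fed and from 8.60 to 81.8 cpm in WD-fed mice (log2 fold changes 2.99 ± 0.37 and 3.25 ± 0.39, FDRs 0.000164 and 0.0001 by edgeR's glmTreat). St8sia4, a polysialyltransferase, went from 20.5 to 106 cpm and from 21.8 to 95.2 cpm (2.37 ± 0.34 and 2.13 ± 0.35). St6gal1, which makes the linkage that Cd22 binds, had -0.17 in CD-fed and 0.55 in WD-fed mice and was not called. Of 3 sialidase genes tested, none was called, with medians of 0.54 and -0.13.

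Of 5 genes encoding heavily sialylated surface proteins that Siglecs bind, 4 rose in CD45hi cells of each diet and none fell, with medians of 2.46 and 2.23. They were Spn (CD43, a ligand of Siglec1) with log2 fold changes of 4.29 in CD-fed and 6.15 in WD-fed mice, Cd24a (a ligand of Siglecg) with 3.28 and 3.91, Cd52 with 2.46 and 2.23, and Ptprc with 1.15 and 1.56. Ptprc is the gene of the sort gate itself and is no finding. Selplg had -0.92 and -0.98 with edgeR glmTreat FDRs of 0.0894 and 0.0539. No gene of these 5 lists was called between the diets or in the interaction.

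**Figure D4:**
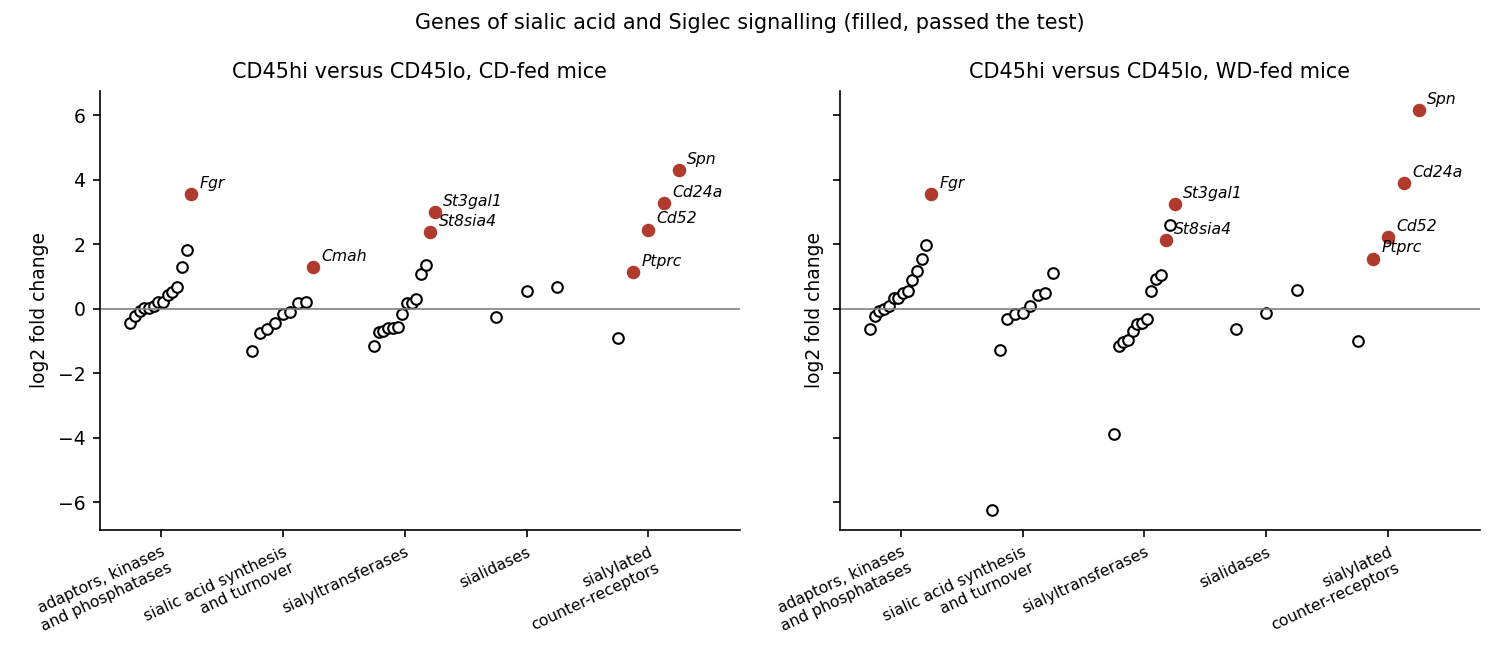
Log2 fold change of CD45hi over CD45lo cells for the tested genes of 5 lists around sialic acid and Siglec signalling, CD-fed mice on the left and WD-fed mice on the right; each point is a gene, and filled, named points passed the test. The 2 lowest open points of WD-fed mice, Nanp and St6galnac2, were under 3 cpm in every group mean.

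Markers of other cells moved with Siglec1 and Siglech between the gates. For border macrophages, a cell type known for Siglec1, 8 of 9 markers were called higher in CD45hi cells of each diet by edgeR's glmTreat, with medians of 3.54 and 3.97, and all 9 were detected in all 15 libraries. Their summed level was 1103 to 3417 cpm in CD45hi and 351 to 540 cpm in CD45lo libraries. Within WD CD45hi, replicate 1 had the lowest marker sum, 1103 cpm against 2464 and 3417 cpm, while its Siglec1 level of 108 cpm lay between those of the other libraries. Replicate 2 of that group was the highest in both, with a marker sum of 3417 cpm and 128 cpm of Siglec1.

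Monocyte and neutrophil markers were higher in CD45hi cells too, 5 of 7 and 6 of 8 being called in each diet. The monocyte markers summed to 467 to 1075 cpm in CD45hi and 21.9 to 72.9 cpm in CD45lo libraries, and CD CD45hi replicate 4, the library highest in Siglec1, was the one at 1075 cpm. Interferon response genes, a set that Siglec1 is known to belong to, were called higher in 5 of 10 cases in CD-fed and 6 of 10 in WD-fed mice, with medians of 2.40 and 2.55. They summed to 258 to 656 cpm in CD45hi and 65.3 to 103 cpm in CD45lo libraries. CD CD45hi replicate 4 was the highest of its group here too, at 563 cpm. In WD CD45hi the orders differed. Replicates 1, 2 and 3 summed to 656, 407 and 578 cpm, with Siglec1 at 108, 128 and 100 cpm. Of the other marker lists, 1 of 6 genes of conventional dendritic cells was called higher in each diet, 2 of 4 genes of T and NK cells in CD-fed and 3 of 4 in WD-fed mice, and none of 4 eosinophil genes. The part that any of these cells or responses had in the Siglec1 difference was not tested.

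For Siglech the microglia markers are the list to set beside it. Of 9, all were called lower in CD45hi cells of CD-fed mice and 7 in those of WD-fed mice, with medians of -1.25 and -1.19, against -0.90 and -0.93 for Siglech itself. P2ry12, the purinergic receptor that defines microglia, went from 3833 to 1278 cpm in CD-fed mice (-1.58 ± 0.12) and from 3422 to 1085 cpm in WD-fed mice (-1.66 ± 0.13). Of 8 genes tested for plasmacytoid dendritic cells, the other cells known for Siglech, 2 were called higher in CD-fed mice and 1 in WD-fed mice and none lower. Their median log2 fold changes were -0.32 and -0.05, with 3 of 8 above 0 in CD-fed and 4 of 8 in WD-fed mice. The 2 called in CD-fed mice were Bst2, at 22.6 to 52.7 cpm in CD45hi and 7.12 to 12.8 cpm in CD45lo libraries, and Spib. In the same libraries Spib was at 0 to 33.3 and 0.0519 to 0.176 cpm. Ccr9, another of their defining genes, was not called and was at 0 to 5.51 cpm in all libraries. Lag3, also of this list, went the other way in CD-fed mice without being called. It was at 56.7 to 76.8 cpm in CD45hi and 98.7 to 141 cpm in CD45lo libraries. The part of these cells in the Siglech level was not tested.

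**Figure D5:**
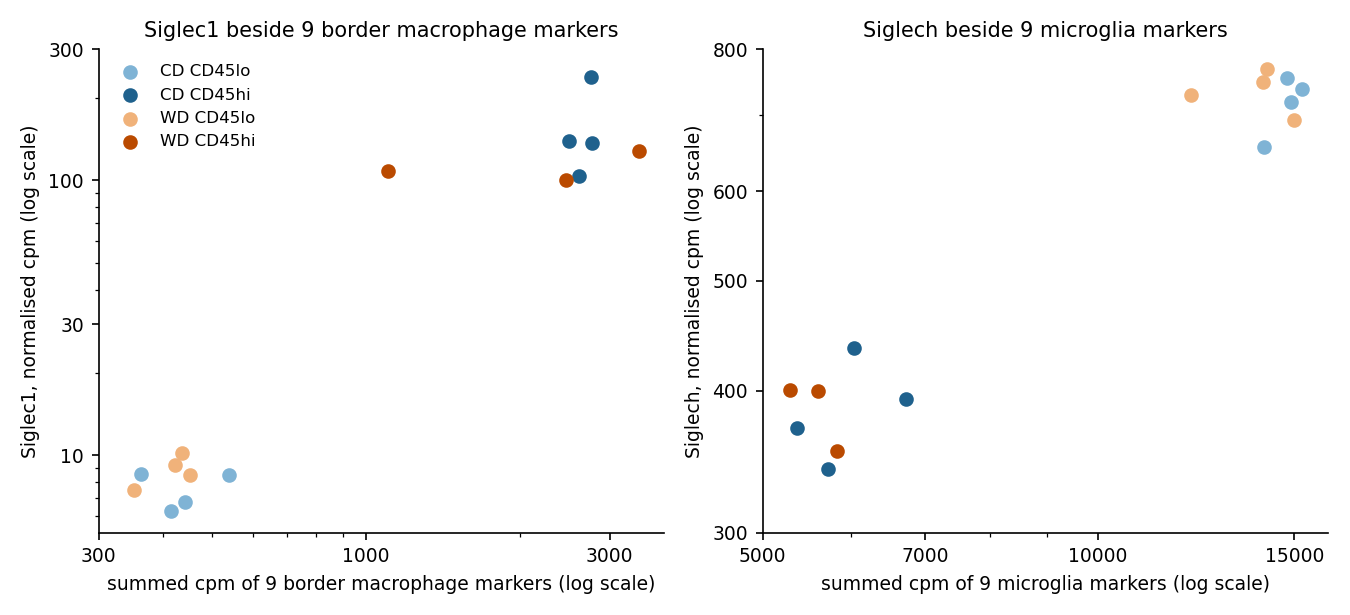
Siglec1 against the summed level of 9 border macrophage markers (left) and Siglech against that of 9 microglia markers (right), in cpm on log axes, 1 point per library. The libraries form 2 separate clusters by gate in both panels, and WD CD45hi replicate 1 has 108 cpm of Siglec1 at 1103 cpm of border macrophage markers. WD CD45hi replicate 2 has 128 cpm of Siglec1 at 3417 cpm of these markers.

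The genes whose level followed each member most closely over the 15 libraries were found by the root mean square difference of mean-centred log2 cpm, among 8253 genes with at least 10 cpm on average. For Siglech they were Cx3cr1, the fractalkine receptor of microglia (0.13), Mtus1 (0.15) and Lpcat2 (0.16), against an SD of Siglech itself of 0.47 over the libraries. Cx3cr1 was at 1206 to 1584 cpm in CD45hi and 2300 to 2948 cpm in CD45lo libraries. For Siglec1 they were Apoe, an apolipoprotein gene (0.35), Cxcr2, a chemokine receptor of neutrophils (0.39), and Lilrb4, an inhibitory receptor of myeloid cells (0.40), against an SD of 2.02. The libraries share the gates, so likeness here mostly describes the difference between gates.

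Endod1 and Atp8a1 were nearest to Cd33, at 0.14 and 0.15 against an SD of 0.19. Prdm11, Hltf and Trp53 were nearest to Siglece, at 0.29 to 0.32 against 0.51, and Dhx9, Wbp2 and Nfkb1 were nearest to Cd22, at 0.26 against 0.37. Siglecg, under 10 cpm on average, was not compared in this way.

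Of the Siglecs outside these 6, 3 were in the files. Siglec5, the symbol the files give to the gene that GENCODE names Siglecf, an eosinophil receptor, was at 4.13 to 20.6 cpm over all libraries. Mag, the Siglec of myelin, was at 0 to 11.3 cpm, and Siglec15 was at 0 in all 15 libraries. Siglec5 and Mag were not called between gates, between diets or in the interaction.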

How the data were processed

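RNA-seq of 15 sorted brain myeloid samples (4 groups of diet by CD45 level) was read from per-sample RSEM tables. The authors trimmed 75 bp paired-end reads (NGS QC Toolkit, Phred under 30), aligned them with Bowtie2 to mm10 and estimated counts with RSEM 1.2.12; the annotation release, the use of strand in counting and the sequencer of each library are not given in the sources used here. The deposited expected counts (estimated, not normalised) were used for all tests. The TPM values deposited beside them were used to rank members and, without a test, to describe levels and a ratio across groups. The transcript lengths deposited by the authors were read for Siglec1 and Cd33.

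Expected counts were rounded to whole numbers and fitted in edgeR 4.0.16 (R 4.3.3; TMM, at least 1 cpm in at least 2 libraries, legacy quasi-likelihood fit, 1 fit over 15 libraries, no block). Gates were compared with glmTreat at 1.5-fold and diets and the interaction with glmQLFTest, each at an FDR under 0.05 over all 14967 genes. Intervals are 95% and come from the fit. Total counts ranged from 11951412 to 17912272, and counting error alone limits values near 3 counts (0.156 to 0.282 cpm).

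Named genes were the 6 members, up to 4 called genes of at least 10 cpm per list, and the 3 genes most alike each member; B cell, interferon and other marker genes were named as checks, some after their values were seen. Some of the genes named by these rules are not reported here. The members and lists were chosen with earlier results of these data known. Alternatives were DESeq2 1.42.0, limma-voom 3.58.1, other scalings, filters, sample sets, replicate blocks and leaving out each library. The pipeline was tested on simulated data: of 200 genes changed by 8-fold in WD CD45hi only, among 14457, 185 were recovered between gates in WD-fed mice, 193 between diets in CD45hi cells and 171 in the interaction, and 0 were called in the 2 comparisons without that group, for which recovery was therefore not tested. Gene positions are from GENCODE M21, which held 37607 of 38924 identifiers. Promoter windows are from RefSeq, which gave 5 of 6 members.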

Additional observations from a re-analysis of the deposited data

Results flagged for a closer look

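Siglecg in CD CD45hi replicate 4 stood apart from its group, at 10.4 cpm against 1.82 to 3.28 cpm in the other 3 libraries (Dixon's ratio 0.831 at the 95% level). It was the only such case among 24 groups of 4 libraries tested over the 6 members, Siglec5 and Mag, where chance gives about 1 in 20. The same library had 15.7 cpm of Pax5 and 33.3 cpm of Spib, both transcription factors of B cells (the latter also of plasmacytoid dendritic cells), against at most 0.497 and 5.50 cpm in the rest of its group, but 0.258 cpm of Ms4a1. These 2 factors were picked after their values were seen, and their part in the Siglecg value was not tested. Without this library the log2 fold change of Siglecg in CD45hi over CD45lo cells of CD-fed mice was -0.28 in place of 0.48, and neither was called.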

How the results depend on the processing

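Siglec1 passed edgeR's glmTreat, or the same limit in another tool, in all 25 alternatives of each diet, and no member was called between diets or in the interaction under any of them. The count of members called between gates went from 2 to 1 wherever Siglech alone missed the 1.5-fold limit. In CD-fed mice this happened with DESeq2, limma-voom, DESeq2's size factors, no filter, the 2 compared groups alone and the replicate block by file names (1 member each). Leaving out 1 library gave 1 to 2 members there, 1 without CD CD45hi replicate 1 or 2, CD CD45lo replicate 2, 3 or 4, or WD CD45lo replicate 2 or 3, with Siglech FDRs up to 0.108. In WD-fed mice it was 1 with DESeq2, limma-voom, DESeq2's size factors, no filter and both replicate blocks, and leaving out a library gave 1 to 2, with 1 without WD CD45hi replicate 1 or WD CD45lo replicate 2, 3 or 4. The highest Siglech FDR was that of DESeq2, 0.20 in CD-fed and 0.157 in WD-fed mice. The cause was not tested.

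The replicate block by sample titles left 2 members in CD-fed and 1 in WD-fed mice (Siglech FDR 0.0531). Same-numbered CD45hi and CD45lo libraries had deviations that correlated by -0.022 to 0.069, and the labels do not say that a number marks an animal, so the numbers were not taken as pairs. With the numbers of the file names a diet effect could not be estimated beside the block.

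Directions turned only for uncalled values. Between gates of CD-fed mice, Cd22 was -0.03 with the replicate block by file names and -0.29 to 0.22 over the leave-one-out fits, Siglece was -0.48 to 0.15 and Siglecg -0.28 to 0.93. Between diets, leaving out a library gave -0.32 to 1.01 for Siglecg in CD45hi cells, and -0.37 to 0.34 for Siglecg, -0.16 to 0.10 for Cd22 and -0.01 to 0.06 for Siglech in CD45lo cells. The interaction was -0.21 to 1.12 for Siglecg and -0.09 to 0.03 for Siglech. Over all genes the calls ranged from 412 to 1162 (595 as reported) and 353 to 1335 (775) between gates, 0 to 1030 (38) and 0 to 4 (0) between diets, and 0 to 188 (1) for the interaction. Siglecg rests on 22 to 162 counts per library, and 3 counts corresponded to 0.156 to 0.282 cpm.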
